A study of Mus musculus with 4 samples.

Results

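The subject is the breakdown of phenylalanine and tyrosine in mouse liver, taken as the genes Tat, Hpd, Hgd, Gstz1 and Fah. All probes that the platform annotation assigns to these 5 genes were used, which gave 6 probes of 45281 on the array and 5 of the 19057 genes with a named probe. The liver RNA came from Med1 floxed mice (Med1fl/fl alleles, C57BL6/J background, 5.5 weeks of age) that received an adenovirus through the tail vein. The groups were Ad-Med1 at day 3, Ad-LacZ at day 3, Ad-Med1 at day 5 and Ad-LacZ at day 5, named by virus and by days from injection to death. Ad-Med1 carries a His-tagged Med1, a subunit of the Mediator complex that serves as a coactivator of nuclear receptors, and Ad-LacZ carries the bacterial beta-galactosidase gene as the control. Every mouse carried the floxed alleles and received an adenovirus, no Cre recombinase is named, and no uninjected liver was analysed here. Each group was measured on 1 array, so that no value has a replicate, and the labels do not say whether an array held 1 animal or a pool. In whole liver, fewer cells of a type and less RNA per cell cannot be told apart.

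Tyrosine is degraded mainly in hepatocytes by enzymes that act in a fixed order. Tat (tyrosine aminotransferase) removes the amino group, Hpd (4-hydroxyphenylpyruvate dioxygenase) makes homogentisate, and Hgd (homogentisate 1,2-dioxygenase) opens its ring. Gstz1 (maleylacetoacetate isomerase) rearranges the product, and Fah (fumarylacetoacetate hydrolase) splits it into fumarate and acetoacetate. In humans, loss of Fah causes hereditary tyrosinaemia and loss of Hgd causes alkaptonuria, and Hpd is the enzyme blocked by the drug nitisinone.

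Promoter windows of 300 bases were read from RefSeq (GRCm38.p6), which held all 5 genes, and the windows of Hpd, Hgd and Fah are shown because their differences between viruses were of unlike size. Each is printed 5′ to 3′ on the strand of the gene and runs from 250 bases before the start to 50 after it. Capitals mark matches, on either strand, to AGGTCA (the core motif of nuclear receptors), to the CCAAT box, to the GC box with the letters GGGCGG, or to the TATA box with the letters TATAAA. No matches overlap. The windows are chr5:123182674-123182973 on the minus strand for Hpd, chr16:37579903-37580202 on the plus strand for Hgd and chr7:84605893-84606192 on the minus strand for Fah. The start given for Hgd lies inside the gene as annotated there.
Hpd: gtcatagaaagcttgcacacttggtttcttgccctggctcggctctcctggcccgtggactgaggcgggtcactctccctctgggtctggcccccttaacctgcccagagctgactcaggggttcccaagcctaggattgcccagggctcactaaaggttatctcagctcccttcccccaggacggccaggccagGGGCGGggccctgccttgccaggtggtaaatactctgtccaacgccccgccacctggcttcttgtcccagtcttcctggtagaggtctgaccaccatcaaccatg
Hgd: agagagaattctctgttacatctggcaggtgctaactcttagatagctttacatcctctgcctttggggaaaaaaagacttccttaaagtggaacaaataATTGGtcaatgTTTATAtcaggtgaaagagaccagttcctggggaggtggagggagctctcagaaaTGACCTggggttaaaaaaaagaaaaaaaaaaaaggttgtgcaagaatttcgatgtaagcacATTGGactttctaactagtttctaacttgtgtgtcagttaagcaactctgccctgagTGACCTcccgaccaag
Fah: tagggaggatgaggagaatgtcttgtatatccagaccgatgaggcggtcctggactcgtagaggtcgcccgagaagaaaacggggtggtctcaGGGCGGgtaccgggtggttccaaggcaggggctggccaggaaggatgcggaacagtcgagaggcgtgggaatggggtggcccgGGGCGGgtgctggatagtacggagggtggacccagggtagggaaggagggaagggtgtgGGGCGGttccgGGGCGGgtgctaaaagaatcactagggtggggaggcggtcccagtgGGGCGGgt

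The window of Hpd was 61.3% G or C and held 1 GC box, 55 bases before the start. Fah was 64.3% G or C and held 5 GC boxes, at 157, 74, 15 and 4 bases before the start and 42 after it. Hgd was unlike both, at 41.0% G or C, with matches on the opposite strand only. These were the nuclear receptor motif 84 bases before and 34 after the start, the CCAAT box 150 and 23 bases before it and the TATA box 139 bases before it. Of 32851 RefSeq promoter windows of this length, 16.3% held the nuclear receptor motif, 37.4% a CCAAT box, 35.7% a GC box and 13.6% a TATA box. AGAACA, the core motif of the glucocorticoid receptor, occurred in 19.0% of windows and in no window of the 5 genes, which says only that these letters are not there. The matches describe the sequence and do not show binding.

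All values below are log2 signals after background correction and quantile normalization (neqc of limma), and differences subtract the Ad-LacZ value from the Ad-Med1 value. Detection on an array means a detection p under 0.01, the level at which its signal stands above the negative controls. Of the 5 genes, 4 were detected on all arrays, and Tat was detected on none. Of the 4 detected genes, all had lower signal in Ad-Med1 than in Ad-LacZ livers at both days, with differences from -2.32 to -0.31, except that Gstz1 at day 3 turned positive (0.20) when intensities were scaled to a common median. Hpd differed most, by 4.98-fold at day 3 and 3.99-fold at day 5. None of the 4 passed the limma test across both days.

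**Figure D1:**
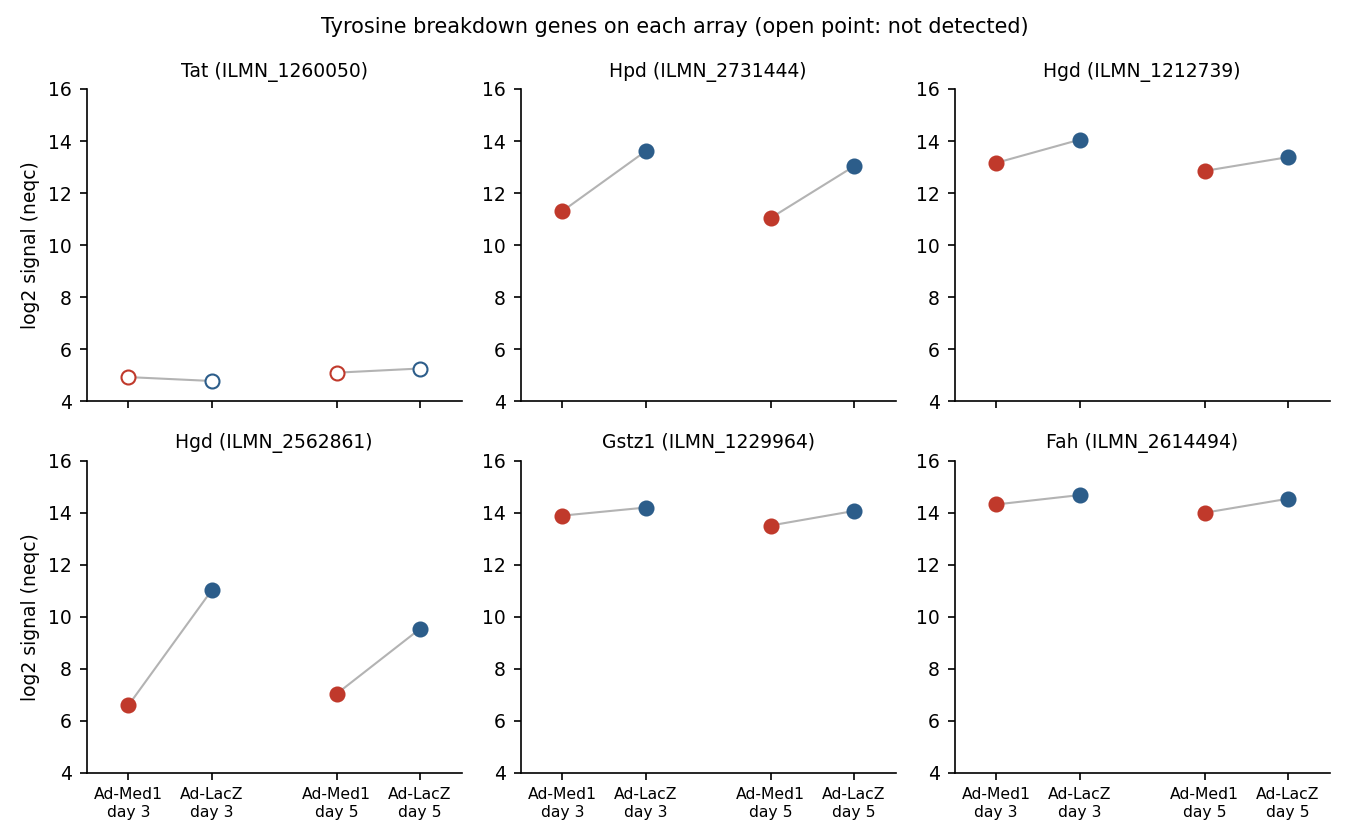
Each panel plots the log2 signal after neqc (vertical axis) of 1 probe on the 4 arrays, with Ad-Med1 in red left of Ad-LacZ in blue at each day, and grey lines join the arrays of a day. Every filled Ad-Med1 point is below its Ad-LacZ point (with median scaling Gstz1 at day 3 differs by 0.20), and the open Tat points, all between 4.77 and 5.25, were not detected.

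Tat, on chromosome 8 from 109986078 to 109999804 (GRCm38.p6), had 1 probe, ILMN_1260050. Its log2 signal was 4.92 in Ad-Med1 and 4.77 in Ad-LacZ livers at day 3, and 5.09 in Ad-Med1 and 5.25 in Ad-LacZ livers at day 5. The detection p was 0.349 in Ad-Med1 and 0.706 in Ad-LacZ at day 3, and 0.21 in Ad-Med1 and 0.167 in Ad-LacZ at day 5. All 4 signals lay in the background, so that no level, fold or direction is given for the enzyme at the head of the path.

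Hpd, on chromosome 5 from 123171807 to 123182723, was read by ILMN_2731444. At day 3 its log2 signal was 11.30 in the Ad-Med1 liver and 13.61 in the Ad-LacZ liver. At day 5 it was 11.04 in the Ad-Med1 liver and 13.03 in the Ad-LacZ liver. Both Ad-Med1 arrays therefore lay below both Ad-LacZ arrays, and each virus's own values at day 3 and day 5 lay closer together than the values of the viruses, with day 5 minus day 3 at -0.26 for Ad-Med1 and -0.58 for Ad-LacZ. The deposited intensities, before any normalization, ran the same way, at 4004 in Ad-Med1 against 6400 in Ad-LacZ at day 3 and 3540 in Ad-Med1 against 5957 in Ad-LacZ at day 5. In these units Hpd was 1.60-fold lower in Ad-Med1 at day 3 and 1.68-fold lower at day 5, a smaller gap than after normalization.

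The normalized difference of Hpd was -2.32 at day 3 and -1.99 at day 5. With genes ordered from the lowest difference, Hpd stood at place 90 of 9052 at day 3 and at place 92 of 9261 at day 5. The limma fit over both days, with virus and day as terms, gave -2.16 ± 0.31 (SE; 95% interval -3.04 to -1.27), or 4.45-fold lower in Ad-Med1. Its adjusted p was 0.366 (limma, Benjamini-Hochberg over 9566 genes), so the difference did not pass 0.05, although its unadjusted p was the 54th smallest. In limma fits under 14 alternatives the adjusted p ran from 0.0172 to 0.656 and passed in 3, namely 2 with median scaling and the fit without the Ad-LacZ array of day 5 (-2.45, adjusted p = 0.0402). The fit has 1 residual degree of freedom, which is the disagreement between the days. Limma draws this spread toward a value shared over all genes, with 2.69 prior degrees of freedom. Neither part measures the spread between animals.

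Hgd, on chromosome 16 from 37579742 to 37632026, had a probe for its RefSeq transcript, ILMN_1212739, and another, ILMN_2562861, for a cDNA record. The transcript probe read 13.16 in Ad-Med1 and 14.05 in Ad-LacZ livers at day 3, and 12.85 in Ad-Med1 and 13.38 in Ad-LacZ livers at day 5. The differences were -0.90 (1.86-fold lower) and -0.53 (1.44-fold lower). Set against the Ad-LacZ array of day 5, the Ad-Med1 array of day 3 differed by only -0.22, where Hpd differed by -1.73. For this probe the deposited intensities ran the other way, at 12745 in Ad-Med1 against 9373 in Ad-LacZ at day 3 and 10941 against 7880 at day 5, so its direction comes from the normalization. The limma effect was -0.71 ± 0.31 (SE; 95% interval -1.61 to 0.18; adjusted p = 0.398).

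The other Hgd probe was much dimmer and differed more. It read 6.59 in Ad-Med1 and 11.02 in Ad-LacZ livers at day 3, and 7.04 in Ad-Med1 and 9.54 in Ad-LacZ livers at day 5. Its differences were -4.43 (21.6-fold lower) and -2.49 (5.62-fold lower). On the Ad-Med1 arrays it lay near the lowest detected signals, which were 6.22 at day 3 and 6.09 at day 5. Its deposited intensities were 259.1 in Ad-Med1 against 827.7 in Ad-LacZ at day 3 and 347.5 against 380.8 at day 5, lower in Ad-Med1 on both days. In a limma fit of every detected probe its effect was -3.46 ± 0.59 (SE; 95% interval -5.10 to -1.82; adjusted p = 0.345). Both Hgd probes were thus lower in Ad-Med1 after normalization, but by amounts of very unlike size, and which part of the gene's RNA the cDNA probe reads was not tested.

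Gstz1, on chromosome 12 from 87147161 to 87164723, was read by ILMN_1229964. Its log2 signal was 13.89 in Ad-Med1 and 14.20 in Ad-LacZ livers at day 3, and 13.51 in Ad-Med1 and 14.07 in Ad-LacZ livers at day 5. The differences of -0.31 (1.24-fold lower) and -0.55 (1.47-fold lower) were both under the 1.5-fold mark used here to describe sizes. The deposited intensities were higher in Ad-Med1, at 19770 against 10560 at day 3 and 16742 against 14140 at day 5. The limma effect was -0.43 ± 0.30 (SE; 95% interval -1.31 to 0.44; adjusted p = 0.525).

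Fah, on chromosome 7 from 84585159 to 84605942, was read by ILMN_2614494. Its log2 signal was 14.32 in Ad-Med1 and 14.68 in Ad-LacZ livers at day 3, and 14.00 in Ad-Med1 and 14.54 in Ad-LacZ livers at day 5. The differences were -0.36 (1.29-fold lower) and -0.54 (1.45-fold lower). As for Gstz1, the deposited intensities were not lower in Ad-Med1, at 25330 against 15827 at day 3 and 22433 against 22220 at day 5. The limma effect was -0.45 ± 0.30 (SE; 95% interval -1.32 to 0.41; adjusted p = 0.507). The probe was among the brightest on the array, above 99.4% to 99.8% of probes on the 4 arrays.

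Counted against a 1.5-fold mark, 2 of the 4 detected genes (Hpd and Hgd) were lower at day 3, where 24.5% of all tested genes were, and none was higher, where 26.2% were. At day 5, 1 of 4 (Hpd) was lower, against 17.5% of all tested genes, and none was higher, against 22.4%. On both days, 1 of 4 (Hpd) was lower, against 9.67% of 8747 genes tested on both, and none was higher, against 9.64%. Every count of genes past this mark given below is to be read beside the same shares. The median difference of the 4 genes was -0.63 at day 3 and -0.55 at day 5, beside -0.03 and 0.07 over all tested genes. Among the 305 genes at least as bright as the dimmest of Hgd, Gstz1 and Fah, the medians were -0.01 and -0.05. In the limma fit 0 of 9566 genes, or 0.0%, had an adjusted p under 0.05, the smallest being 0.366, while 1295 had an unadjusted p under 0.05. That count of 0 was 4983 with median-scaled intensities and 413 without the Ad-LacZ array of day 5. Of the 4 tyrosine genes, Hpd alone was among the 1295.

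**Figure D2:**
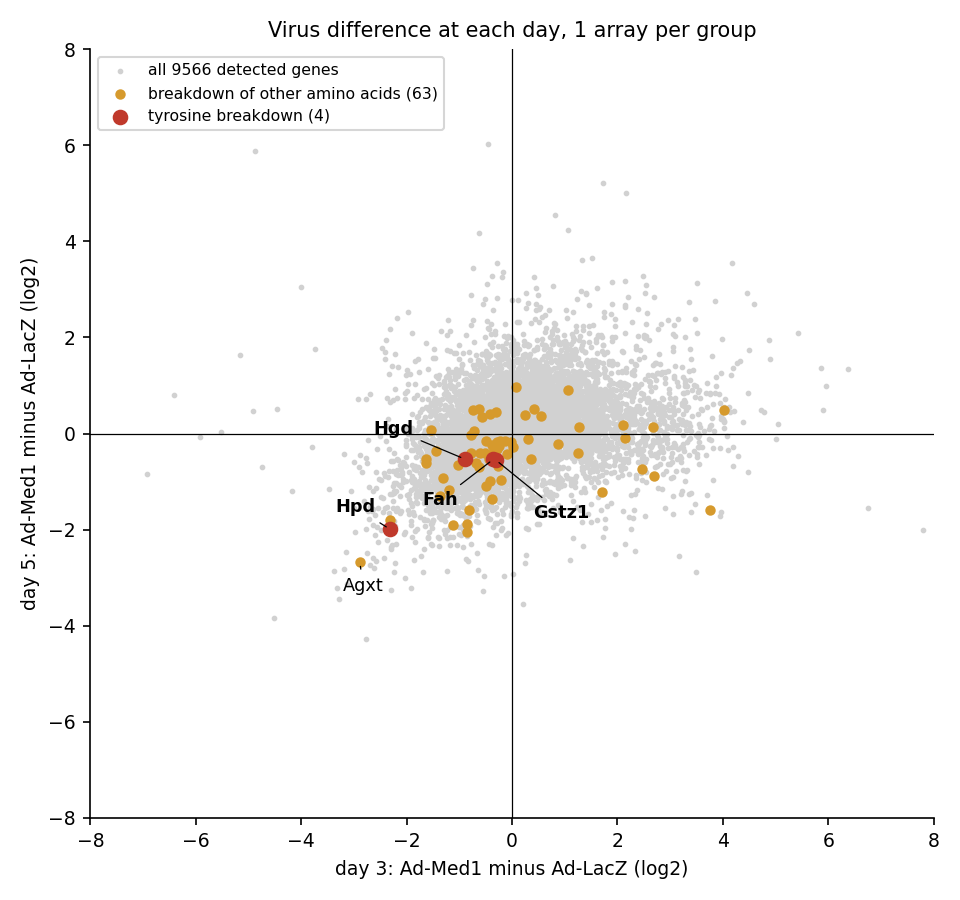
The difference Ad-Med1 minus Ad-LacZ (log2) at day 3 (horizontal axis) is plotted against that at day 5 (vertical axis), 1 point per detected gene, with genes of tyrosine breakdown in red and of other amino acids in yellow. Hpd lies at -2.32 and -1.99 near Agxt, while Hgd, Gstz1 and Fah lie between -0.90 and -0.31 at day 3 and close to each other at day 5.

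The direction of the smaller differences depended on the scaling. When the deposited intensities were scaled to a common median without background correction, the median gene was 1.0 higher in Ad-Med1 at day 3 and 0.83 higher at day 5. The share of genes at least 1.5-fold higher then became 73.4% at day 3 and 66.9% at day 5, and the share lower 1.22% and 2.18%. Hpd remained lower under this scaling, by -1.38 at day 3 and -1.45 at day 5, or -2.38 and -2.29 relative to the median gene. Hgd stood at -0.26 and -0.23, Fah at -0.02 and -0.69, and Gstz1 at 0.20 and -0.46, the 1 positive difference. Relative to the median gene all 4 were lower on both days, by -2.38 to -0.80 at day 3 and -2.29 to -1.06 at day 5.

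**Figure D3:**
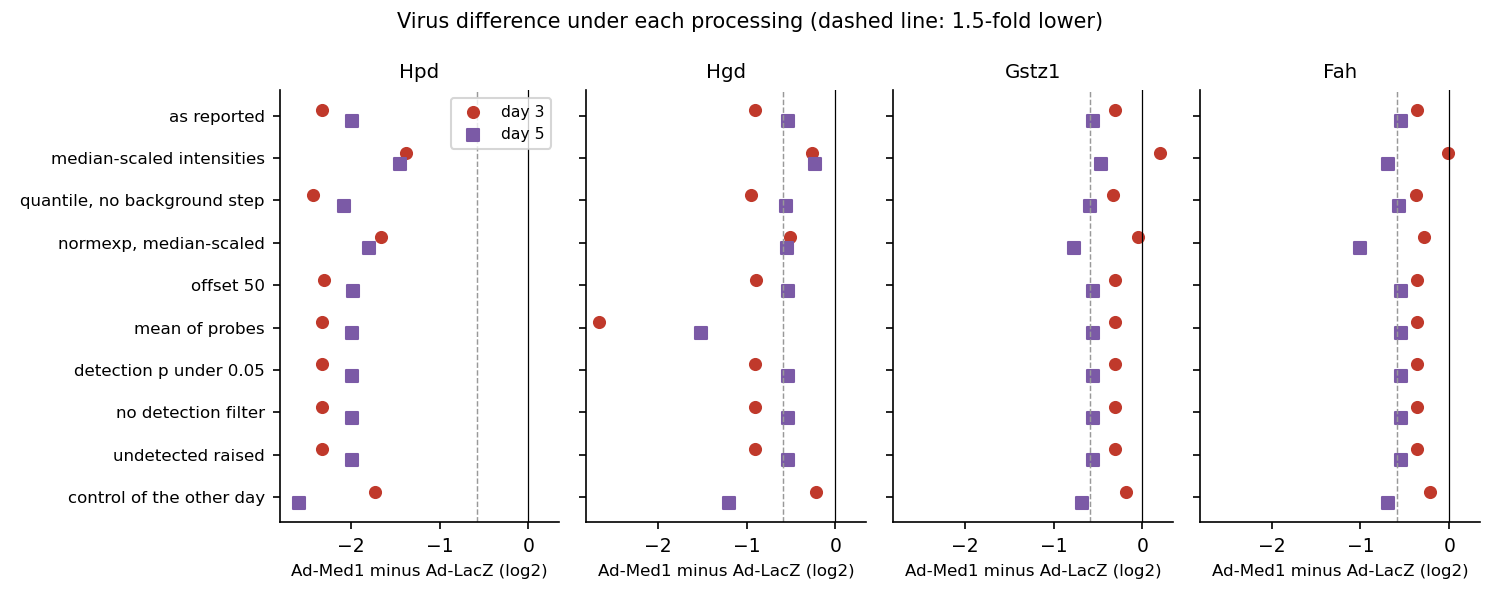
Each panel plots 1 gene's difference Ad-Med1 minus Ad-LacZ (log2, horizontal axis) at day 3 (red circles) and day 5 (purple squares) under each processing (rows), with a solid line at 0 and a dashed line at 1.5-fold lower. Hpd stays left of the dashed line in every row, between -2.58 and -1.38, and Gstz1 at day 3 crosses 0 with median scaling, at 0.20. The rows for the mean of probes, the detection filters and raised undetected signals could not move Hpd, Gstz1 or Fah.

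The 4 array profiles of the genes were compared after centring each on its own mean, by the root mean square distance over the 4 arrays, among 7190 genes detected on all of them. The genes closest to Hpd were Ggact (0.052), Vgll4 (0.065) and Cyp4b1-ps2 (0.091). Ggact, for example, read 9.14 in Ad-Med1 and 11.49 in Ad-LacZ livers at day 3, and 8.96 and 10.81 at day 5. Hgd stood at place 774 of the genes ordered by closeness to Hpd, Fah at place 1534 and Gstz1 at place 1609. Closest to Hgd were Aldh1l1 (0.016), a folate enzyme, then Tmem160 (0.026) and Ercc4 (0.038). Gstz1 and Fah lay close to each other, at a distance of 0.022, with Fah at place 2 for Gstz1 after Wdr74 (0.015) and before Thoc3 (0.024). Closest to Fah were Hbp1 (0.010), Gle1 (0.016) and Manbal (0.021), with Gstz1 at place 4. With 4 arrays, many genes have near-identical profiles, and these distances only describe them.

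Tetrahydrobiopterin is a cofactor of the aromatic amino acid enzymes, and 8 genes of its synthesis, recycling and regulation, with the co-chaperone Dnajc12, were detected of 8 with a probe. At day 3, 4 were at least 1.5-fold lower and 0 higher, beside 24.5% and 26.2% of all tested genes. At day 5, 1 was lower and 1 higher, beside 17.5% and 22.4%. The medians were -0.48 and 0.04. Gchfr, which regulates the first enzyme of cofactor synthesis, was the 1 gene lower on both days, reading 12.18 in Ad-Med1 against 12.80 in Ad-LacZ at day 3 and 11.55 against 12.33 at day 5. A further Gchfr probe differed by -0.48 and -0.73.

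Transporters of aromatic amino acids had 4 detected of 6 listed, and genes that handle fumarate and acetoacetate, the end products, had 6 of 7. In neither list was the brightest probe of a gene past 1.5-fold in 1 direction on both days. The transporter Slc16a10 was at 0.03 and 0.13 on its brightest probe, while a further probe, detected on 2 arrays, was at -1.53 and -1.36. The transporters' medians were 0.22 at day 3 and 0.24 at day 5, with 1 higher and 1 lower at day 3 and 0 at day 5. The end-product genes' medians were -0.02 and 0.02, with 1 higher and 1 lower at day 3, and 1 higher and 0 lower at day 5. Of 9 further enzymes that act on tyrosine or its keto acid, 5 were detected, with medians of 0.01 and -0.15, 1 counted as higher on each day and 0 lower. Among these, Got2, a mitochondrial aminotransferase that can accept tyrosine, read 14.46 in Ad-Med1 against 14.62 in Ad-LacZ at day 3 and 14.38 against 14.58 at day 5, and a further probe differed by 0.37 and 0.02. Hpdl, a relative of Hpd, was detected only in the Ad-Med1 liver of day 5, at 6.13, where the Ad-LacZ liver read 5.50. It is the 1 gene counted as higher at day 5, but 6.13 is below the lowest detected signal of that Ad-LacZ array, 6.41, so that no difference can be bounded. Got1 has no named probe and is not analysed here.

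The breakdown of other amino acids gives the setting for these values. Of 63 detected genes, 22 were at least 1.5-fold lower and 12 higher at day 3, beside 24.5% and 26.2% of all tested genes. Of the 62 detected at day 5, 22 were lower and 2 higher, beside 17.5% and 22.4%. The medians of these amino acid genes, -0.38 at day 3 and -0.40 at day 5, lay between those of all genes and those of the 4 tyrosine genes. Taking each gene's brightest probe, 13 were lower on both days and 1 was higher, beside 9.67% and 9.64% of all genes tested on both. Agxt, which transaminates glyoxylate in peroxisomes, was the 1 gene of the 62 that lay below Hpd on both days, reading 9.95 in Ad-Med1 against 12.84 in Ad-LacZ at day 3 and 9.68 against 12.36 at day 5. No gene of these lists passed the limma test, with 0 of 9566 genes passing.

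Tryptophan breakdown, with 10 of 11 genes detected, had 4 lower and 3 higher at day 3 and 3 lower and 0 higher at day 5, with medians of -0.41 and -0.41. Haao, which acts late in the kynurenine path, was the 1 gene whose brightest probe was at least 1.5-fold lower on both days, at -0.81 and -1.60. Further probes of 2 other genes were also lower by this measure on both days. Afmid, the kynurenine formamidase, differed by -0.61 and -0.41 on its brightest probe, while its 6 further probes ran from -2.95 to -1.04 at day 3 and from -1.60 to -0.82 at day 5. Kyat1, a kynurenine aminotransferase, differed by -0.44 and -0.53 on its brightest probe and by -0.65 and -0.96 on a further probe detected on all 4 arrays. Kyat3 went the other way on its further probes, at 0.69 and 0.24, and at 0.75 and 1.40 on a probe detected on 1 array. Its brightest probe was at -0.62 and 0.52. Histidine breakdown, with 4 of 4 detected, had 2 lower on each day and 0 higher, with medians of -0.78 and -0.88. These were Hal, the histidine ammonia-lyase at the head of the path (-1.37 and -1.31), and Uroc1, the urocanate hydratase that follows it (-1.12 and -1.90). A further Hal probe differed by -0.16 at day 3 and -1.98 at day 5. Ftcd differed by -0.22 and -0.16 on its brightest probe and by -1.99 and -1.34 on a further probe.

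Methionine and sulfur genes, 13 of 13 detected, had 4 lower and 3 higher at day 3 and 7 lower and 0 higher at day 5, with medians of -0.27 and -0.67. By brightest probe, 4 were at least 1.5-fold lower on both days. Of these, Cth (-0.85 and -2.06) and Cbs (-1.19 and -1.18) are the transsulfuration enzymes. Ethe1 (-0.85 and -1.89) and Suox (-1.31 and -0.92) oxidise sulfur. Further probes of Gnmt (-0.86 and -1.21, and -2.47 and -1.29) and Ahcy (-1.21 and -1.32) were also lower by this measure. A further Csad probe went both ways (0.75 and -0.37). Branched-chain amino acid genes went both ways, with 17 of 19 detected, 3 lower and 5 higher at day 3, 2 lower and 1 higher at day 5, and medians of -0.31 and 0.13. Acad8, which oxidises isobutyryl-CoA in valine breakdown, was lower (-2.31 and -1.80) and Bckdhb, a subunit of the branched-chain keto acid dehydrogenase, was higher (1.06 and 0.90). Further probes of Dbt (2.56 and -0.52), Pccb (0.96 and -0.30) and Pcca (0.79 and -0.30) were higher by this measure at day 3 alone. That of Bckdk (0.35 and 0.80) was higher at day 5 alone, and that of Acad8 (-1.81 and -1.86) was lower on both days.

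Lysine, proline, serine and glycine genes, 11 of 16 detected, had 4 lower and 1 higher at day 3 and 6 lower and 0 higher at day 5, with medians of -0.28 and -0.61. By brightest probe, 3 were at least 1.5-fold lower on both days. These were the proline enzymes Prodh2 (-1.02 and -0.66) and Prodh (-0.68 and -0.61), and Amt of the glycine cleavage system. Amt was not detected on either Ad-Med1 array and was at least 2.47-fold lower at day 3 and at least 1.49-fold lower at day 5. A further Prodh probe was at -0.72 and -0.39. Further probes of Shmt1 (-1.03 and -1.02), Hoga1 (-1.40 and -0.68) and Aass (-2.38 and -0.79, detected on 3 arrays) were lower by this measure on both days. The brightest Aass probe was higher, at 0.55 and 0.37. A further Gcdh probe, detected on 3 arrays, went both ways (2.89 and -0.88). Alanine, glutamine and urea-cycle genes, 8 of 9 detected, had 5 lower and 0 higher at day 3 and 2 lower and 1 higher at day 5, with medians of -0.68 and -0.18. Agxt and the alanine aminotransferase Gpt (-0.62 and -0.70) were the 2 lower on both days by brightest probe. Further probes of Glud1 (-2.30 and -0.91) and Agxt2 (-1.53 and -0.70) were also lower by this measure, while other probes of both genes were not.

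**Figure D4:**
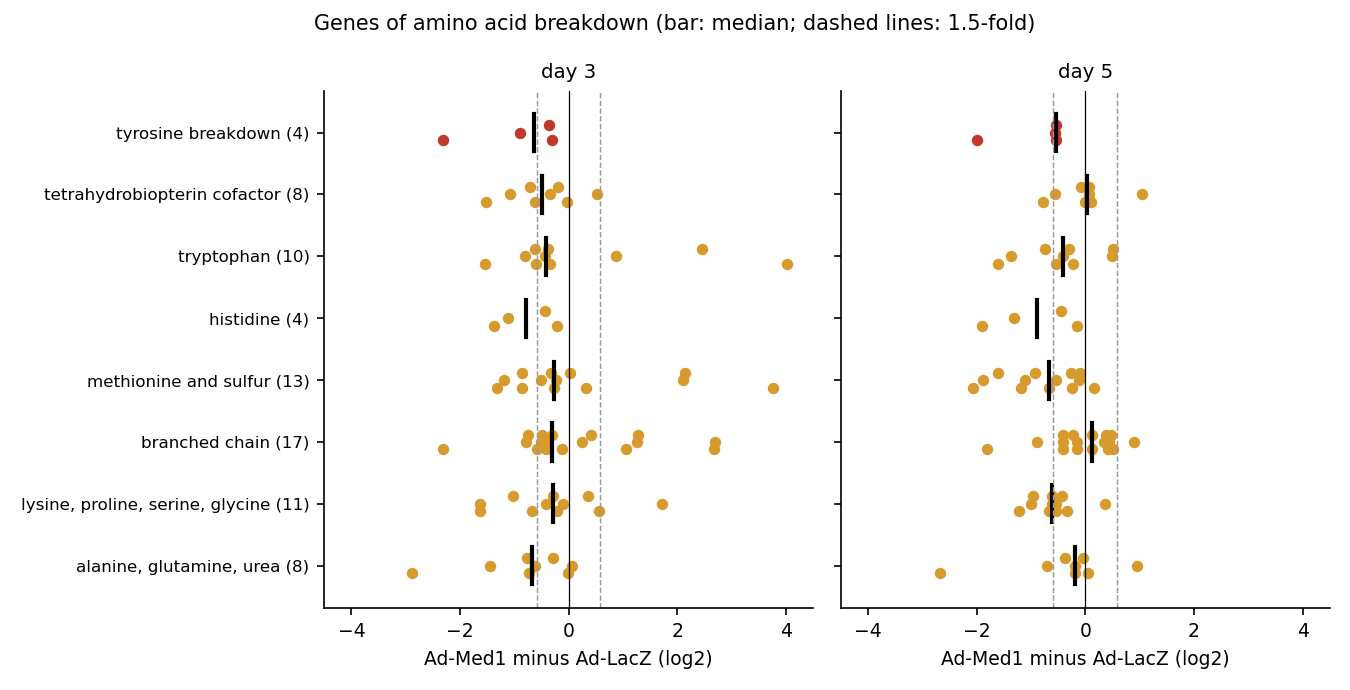
Each point is the difference Ad-Med1 minus Ad-LacZ (log2, horizontal axis) of 1 gene detected at that day, in rows by pathway with the number of genes detected on any array, the black bar is the row's median and dashed lines mark 1.5-fold. The 4 tyrosine genes lie left of 0 at both days (Gstz1 at day 3 lies at 0.20 with median scaling) with Hpd apart from the rest, and the branched-chain row spreads to both sides at day 3, with a median of -0.31.

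Transcription factors known to act on the Tat gene in rodent liver gave 9 detected genes of 12 listed, with 4 counted as higher and 2 lower at day 3, 3 higher and 2 lower at day 5, and medians of 0.56 and 0.24. Nr3c1, the glucocorticoid receptor, read 6.72 in Ad-Med1 at day 3, where the Ad-LacZ array, with a lowest detected signal of 6.78, did not detect it, and 7.01 in Ad-Med1 against 6.58 in Ad-LacZ at day 5. Ppargc1a, a coactivator of fasting genes, read 6.58 in Ad-Med1 against 9.29 in Ad-LacZ at day 3 and 7.0 against 8.11 at day 5. Cebpd, a C/EBP family factor, was higher in Ad-Med1, at 9.12 against 8.03 and 9.01 against 8.34. Nr3c1 is 1 of the 4 counted at day 3, although its difference there cannot be bounded. Since Tat itself was not detected, no relation to its level can be given.

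Med1, the gene carried by the virus, had 5 probes, of which 3 were detected and higher in Ad-Med1 on both days. ILMN_3106388 read 9.35 in Ad-Med1 against 7.27 in Ad-LacZ at day 3 and 9.66 against 7.47 at day 5, and ILMN_2658227 was detected on the Ad-Med1 arrays alone, at 11.16 and 12.22. ILMN_1220563, the brightest of the 3 on average, differed by 1.99 at day 3 and 0.20 at day 5. The arrays detected 28.5% to 33.8% of probes, and their mean deposited intensity was 925 and 968 in Ad-Med1 livers, against 350 and 475 in Ad-LacZ livers, a gap that runs with the virus on both days. Hepatocyte markers were detected for 11 to 12 of 13 genes, with a summed linear signal of 344770 and 346518 in Ad-Med1 and 341763 and 369288 in Ad-LacZ, although Fgb was detected on no array and Alb lay at 5.84 to 7.59. This sum rests mostly on the brightest markers, such as Ttr (15.17 to 15.33). Quantile normalization leaves such signals little room to differ, so the sum does not measure hepatocyte content. Of single hepatocyte markers, 2 were at least 1.5-fold higher and 1 lower at day 3, and 0 higher and 2 lower at day 5. Other cell markers also differed between arrays. The summed signal of 5 erythroid markers (4 to 5 detected) was 3160 in Ad-Med1 against 78043 in Ad-LacZ at day 3 and 69721 against 54430 at day 5, and that of 10 Kupffer cell markers 2375 against 14445 and 10562 against 6444, with 5, 9, 9 and 8 detected.

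Endothelial markers (9 of 10 detected on every array) summed to 10332 in Ad-Med1 against 17336 in Ad-LacZ at day 3. At day 5 they summed to 9469 against 15292. Stellate cell markers (7 to 9 of 10) summed to 9724 against 15199 and 8699 against 14667. Both sums were lower in Ad-Med1 on both days, but single markers went both ways. Of the endothelial markers, 7 were at least 1.5-fold lower and 2 higher at day 3, and 3 lower and 1 higher at day 5. Of the stellate markers, 5 were lower and 2 higher at day 3, and 6 lower and 2 higher at day 5. Cell-division markers (4 to 6 of 8) summed to 10068 against 1045 at day 3 and 3442 against 2942 at day 5, and T and NK cell markers (1 to 5 of 8) to 2585 against 1991 and 3912 against 1313. At day 3 the T and NK sum rests mostly on Cd8b1 (11.17 against 10.68), the 1 marker of that list detected in Ad-Med1 there. Cd3d was detected at day 3 in Ad-LacZ alone, so the sum gives no direction for T cells at day 3. Bile duct markers (1 to 2 of 5), kidney tubule markers (1 to 2 of 9) and exocrine pancreas markers (2 to 3 of 7) were mostly undetected, among them Krt7, Krt19 and Epcam, Kap, Umod and Slc34a1, and Prss2, Cpa1 and Ctrb1. Detected on all 4 arrays were Sox9 (8.38 to 9.29), Slc12a3 (9.19 to 9.81), Amy2a5 (13.62 to 14.02) and Cela1. Cela1, a pancreatic elastase, was lower in Ad-Med1 on both days, at 10.46 against 11.70 in Ad-LacZ at day 3 and 9.36 against 11.37 at day 5. Cela2a was detected on the Ad-LacZ arrays alone and was at least 3.38-fold lower in Ad-Med1 at day 3 and at least 1.67-fold lower at day 5. Xist read 11.17 in Ad-Med1 at day 3 and was not detected in Ad-LacZ, and at day 5 it read 9.51 against 8.15. Its 3 further probes differed by 3.92, 3.83 and 4.94 at day 3 but by -4.63, -4.67 and -0.13 at day 5, so that its direction at day 5 is not settled. Eif2s3y, a Y-linked gene, was detected only in Ad-LacZ at day 3, at 9.52, and only in Ad-Med1 at day 5, at 10.54. Eif2s3y therefore differed between the viruses in opposite directions on the days. The part of cell makeup, sex or array brightness in the values of the 5 genes was not tested.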

How the data were processed

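Liver RNA of 4 groups, 1 array each, was hybridised to an Illumina mouse array. Per the file headers, the deposited table holds a non-normalized probe intensity on a linear scale, with a detection p-value beside each intensity. The authors' series values matched them exactly (largest difference 0), which settles their scale and direction. The sources used here do not name the scanner software.

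Intensities were corrected and normalized with neqc of limma 3.58.1 in R 4.3.3 (normexp against the detection p-values, offset 16, quantiles, log2). Symbols came from the platform annotation (34885 probes with 1 symbol, 18 with several, 10378 with none; the first kind was named) and were updated through the gene identifier in RefSeq (GRCm38.p6), which held 34807 (99.8%). A gene was represented by its probe with the highest mean signal. Of 19057 genes, 9566 were detected (p under 0.01) on at least 1 array, 9052 were tested at day 3 and 9261 at day 5. With 1 array per group a day's difference has no test. Counts past 1.5-fold take the measured difference, also where only 1 of the arrays compared detected the gene. Limma (lmFit, eBayes) with virus and day as terms was fitted to the 9566 genes, with Benjamini-Hochberg adjustment and 1 residual degree of freedom. The procedure was run on simulated data with equal, independent noise in every gene. That setting is unlike these arrays, so it checks the code and not the p-values given here. The spread behind the p-values comes from the disagreement between days and from a variance shared over genes, with 2.69 prior degrees of freedom. It does not measure the spread between animals. The number of arrays limits the precision.

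The members and lists were chosen with earlier results of these data known. Beside the members, the text names up to 4 genes per list that were at least 1.5-fold different the same way on both days, the 3 closest profiles per gene, and Got1, Got2, Hpdl and Nr3c1. Alternatives covered scaling, background, offset, probe choice, detection filter, control array, the day term and leaving out an array. A bound sets an undetected signal to the higher of itself and the array's lowest detected signal.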

Additional observations from a re-analysis of the deposited data

Results flagged for a closer look

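Each value below is a log2 difference, Ad-Med1 minus Ad-LacZ, that was at least 1.5-fold in opposite directions on the days, with 1 array on each side, and no difference between the days was tested. Near the tyrosine path, Dnajc12, a co-chaperone, was at -1.52 at day 3 and 1.05 at day 5, and its further probe at -0.18 and 1.03. Of other amino acid genes, Kmo, the kynurenine monooxygenase, was at 2.46 and -0.74, and Bhmt, which remethylates homocysteine, at 3.76 and -1.60. Mccc1, a subunit of the leucine enzyme methylcrotonyl-CoA carboxylase, was at 2.70 and -0.88, and Dmgdh, the dimethylglycine dehydrogenase, at 1.71 and -1.22. In 4 of these, all but Dnajc12, the Ad-LacZ array of day 3 held the lowest signal. Kmo read 11.69 in Ad-Med1 and 9.23 in Ad-LacZ at day 3 and 10.78 and 11.52 at day 5. Bhmt read 12.68 and 8.92 at day 3 and 11.39 and 12.98 at day 5, and Mccc1 9.75 and 7.05 at day 3 and 9.45 and 10.33 at day 5, in the same order. Dmgdh read 10.87 in Ad-Med1 and 9.16 in Ad-LacZ at day 3 and 10.18 and 11.40 at day 5. Hpd, Hgd, Gstz1 and Fah did not share this pattern, since on that array each had its highest signal of the 4.

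Among glucocorticoid-responsive genes, Errfi1 was at -0.86 and 0.68 and Zbtb16 at -2.69 and 0.83. Zbtb16 was detected only in Ad-LacZ at day 3 and in Ad-Med1 at day 5, so that it was at least 5.68-fold lower in Ad-Med1 at day 3 and at least 1.06-fold higher at day 5. Gclc, the catalytic subunit of glutathione synthesis, was at 2.74 and -0.67. The Ad-LacZ array of day 3 did not detect Gclc, so that it was at least 5.05-fold higher in Ad-Med1 at day 3. The median of the Kupffer cell markers was -2.19 at day 3 and 0.75 at day 5.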

How the results depend on the processing

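The limma fit pairs the viruses by day, and no pairing by replicate number was possible because each group holds 1 array. Hpd was lower in Ad-Med1 on both days under every processing tried, from -2.43 to -1.38 at day 3 and -2.58 to -1.45 at day 5, and so were Hgd (-4.43 to -0.22 and -2.49 to -0.23, the lowest from its other probe) and Fah (-0.38 to -0.02 and -1.0 to -0.54). Gstz1 ran from -0.33 to 0.20 at day 3 and -0.77 to -0.46 at day 5, positive only with median-scaled intensities. Hpd, Gstz1 and Fah each have 1 probe, detected on all arrays. The mean of probes, the detection filters and the raising of undetected signals could therefore not change their differences. The number of genes at least 1.5-fold lower at day 3 was 1 in place of 2 with median-scaled intensities, with normexp and median scaling, and with the control array of the other day. At day 5 it was 2 in place of 1 with median-scaled intensities, with quantiles and no background correction, and with the mean of a gene's probes, 3 with normexp and median scaling, and 4 with the control array of the other day. With normexp and median scaling the median gene was 1.14 and 0.91 higher in Ad-Med1, and 74.5% of genes were higher and 3.12% lower at day 3, 66.6% and 5.12% at day 5. The limma count of 0 became 4983 with median-scaled intensities and 1729 with normexp and median scaling, and ran from 0 to 413 when each array was left out in turn without a day term, the 413 without Ad-LacZ at day 5. The lone array left in a group was then assumed to vary like the others. Hpd passed in 3 of 14 alternative limma fits, with median-scaled intensities (-1.42, adjusted p = 0.0172), with normexp and median scaling (-1.73, adjusted p = 0.0472) and without Ad-LacZ at day 5 (-2.45, adjusted p = 0.0402), over a range of adjusted p from 0.0172 to 0.656. Signal over background limits Tat and the dim Hgd probe. The cause of these changes was not tested.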

Other observations

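Other gene groups bear on tyrosine breakdown in other settings, and their values are given without a test of any relation to it. Glucocorticoid-responsive genes of liver, 14 of 15 detected, had medians of -0.37 at day 3 and 1.12 at day 5. At day 3, 5 were at least 1.5-fold lower and 3 higher, beside 24.5% and 26.2% of all tested genes. At day 5, 1 was lower and 11 higher, beside 17.5% and 22.4%. Those past 1.5-fold in the same direction on both days were Per1, a clock gene (1.06 and 4.23), Pck1, which commits carbon to glucose synthesis (2.25 and 1.51), Mt2, a metallothionein (1.09 and 1.75), and Klf9, a Krüppel-like factor (-0.91 and -0.70). Further probes of Per1 (0.36 and 3.49) and Pck1 (0.56 and 1.97) gave smaller differences at day 3. Tsc22d3 was counted as higher at day 5 on its brightest probe (-0.53 and 1.31). Its further probes were at -1.87 and 0.52, and at -4.0 and -0.92, the last lower on both days. A further Lpin1 probe was at -1.69 and 2.59, where the brightest was at -0.47 and 3.11. Per1 read 10.32 in Ad-Med1 against 9.26 in Ad-LacZ at day 3 and 10.74 against 6.51 at day 5, so the Ad-LacZ array of day 5 stood lowest.

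Genes known to respond in mouse liver when Fah is lost, mostly of the oxidative stress response, were detected for 10 of 10. At day 3, 7 were higher and 0 lower, beside 26.2% and 24.5% of all tested genes. Of 9 detected at day 5, 5 were higher and 1 lower, beside 22.4% and 17.5%. Afp, Gclc and Txnrd1, counted as higher at day 3, were not detected in Ad-LacZ there, and Afp was at least 1.06-fold higher. The medians of these genes were 0.92 and 0.63. Gsta1, a glutathione transferase, read 12.02 in Ad-Med1 against 8.16 in Ad-LacZ at day 3 and 12.99 against 10.22 at day 5, and its further probes ran the same way, at 4.84 and 3.66 and at 4.15 and 2.80. Nqo1, a quinone reductase, was at 0.65 and 1.34. Txnrd1, a thioredoxin reductase, was at least 4.07-fold higher in Ad-Med1 at day 3, where the Ad-LacZ array did not detect it, and at 0.63 at day 5. Fah itself differed by -0.36 and -0.54, and no gene of either group passed the limma test.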
